A study of Mus musculus with 6 samples.

Results

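The acid-sensing ion channel (ASIC) genes *Asic1*, *Asic2*, *Asic3* and *Asic4* were followed in testes of *Srsf1* conditional knockout (cKO) and control (Ctrl) mice at 5 days postpartum (dpp). They were the 4 genes with these names among the 54532 genes of the deposited table. *Asic4* was selected on its FPKM, which were higher in cKO than in Ctrl testes of these same samples, so its difference is given as a description with no test. *Asic1*, *Asic2* and *Asic3* were taken as its family members, and the comparison asked whether they were higher as well.

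RNA sequencing was performed on 3 Ctrl and 3 cKO testes. In the cKO mice, Cre expressed from the promoter of *Vasa* (*Ddx4*), a germ-cell gene, deleted a floxed part of *Srsf1*, which encodes an RNA-binding splicing factor. The labels give the genotypes as Ctrl and cKO - Srsf1 and say no more of the alleles that the Ctrl mice carried. *Vasa*-Cre acts in germ cells, whereas the whole testis also holds Sertoli, Leydig, peritubular myoid and other somatic cells. The paper writes the cKO genotype as *Vasa*-Cre *Srsf1* Fl/del, with a floxed allele beside a deleted (del) one. Whether the somatic cells also carried the del allele was not tested here. *Srsf1* was at 82.1 to 89.1 FPKM in Ctrl testes and at 45.1 to 51.6 FPKM in cKO testes. FPKM count fragments relative to the length of a gene and the size of a library, and the libraries held 15448191 to 18964743 reads assigned to genes.

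ASICs belong to the degenerin and epithelial sodium channel family. Subunits assemble as trimers that open a sodium-conducting pore when protons bind outside the cell, and they are best known from neurons, where they take part in synaptic signalling and in the sensing of acid and pain. ASIC1, ASIC2 and ASIC3 form proton-gated channels, alone or mixed, whereas ASIC4 is not known to form such a channel by itself.

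The coding sequence around the selectivity filter of the pore is shown for each member, because every member holds the filter there and the bases around it differ. Other parts of the coding sequences were not compared in this way. Each stretch is 60 bases of GRCm38 from GENCODE M21 transcripts, read 5′ to 3′ on the coding strand. The 9 capitals mark the 3 codons of the glycine, alanine and serine that line the filter.
Asic1: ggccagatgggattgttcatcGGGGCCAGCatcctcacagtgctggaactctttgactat
Asic2: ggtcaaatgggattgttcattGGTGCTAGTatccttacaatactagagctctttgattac
Asic3: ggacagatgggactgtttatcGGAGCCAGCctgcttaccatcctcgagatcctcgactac
Asic4: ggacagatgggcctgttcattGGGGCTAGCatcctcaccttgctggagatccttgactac

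These stretches lie in exon 8 of each transcript. The *Asic1* stretch is at chr15:99698641-99698700 on the + strand and has the same base as *Asic4* at 49 of 60 positions. The *Asic2* stretch is at chr11:80883431-80883490 on the − strand and matches *Asic4* at 46 positions. The *Asic3* stretch is at chr5:24417134-24417193 on the + strand and matches *Asic4* at 48 positions, and the *Asic4* stretch is at chr1:75473003-75473062 on the + strand. The coding sequences run to 559, 563, 530 and 539 codons in *Asic1*, *Asic2*, *Asic3* and *Asic4*. Despite the shared filter, 0 stretches of 50 bases were common to the transcripts of any 2 members, and 0% of the 50-base stretches of each member occurred in the transcripts of any other gene. Transcripts were compared in their own direction only, so matches to the opposite strand were not sought.

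*Asic4* (ENSMUSG00000033007, chr1:75450436-75474343, + strand) was the most abundant member in every testis. Ctrl 1, 2 and 3 had 3.47, 2.60 and 3.80 FPKM, whereas cKO 1, 2 and 3 had 8.55, 8.94 and 8.33 FPKM. The 3 cKO testes were close together, and the lowest of them lay well above the highest Ctrl testis. Ctrl testes averaged 3.29 ± 0.620 FPKM and cKO testes 8.61 ± 0.306 FPKM (SD, n = 3 each), a ratio of 2.62. On the log2(FPKM + 1) scale, which understates the change of low genes, the difference was 1.17 (SE 0.12).

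The *Asic4* values rested on 153, 135 and 172 reads in Ctrl 1, 2 and 3 and on 367, 407 and 351 reads in cKO 1, 2 and 3. Exact 95% Poisson intervals, which cover counting error only, reached up to 4.41 FPKM in Ctrl 3 and down to 7.48 FPKM in cKO 3. They describe the values on which *Asic4* was selected and are no test of its difference. The lowest Ctrl value was that of Ctrl 2, and without this library the ratio was 2.37. Leaving out any other library gave ratios between 2.57 and 2.84. Among the 16206 genes that averaged 0.5 FPKM or more, *Asic4* ranked 35 by log2 fold change from the most positive down, and it ranked 11 among 13204 protein-coding genes. Its level was unremarkable, with rank 8094 of 16206 by mean FPKM. Because whole testes were sequenced, fewer cells of a type and less RNA per cell cannot be told apart, nor can more cells and more RNA per cell.

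**Figure D1:**
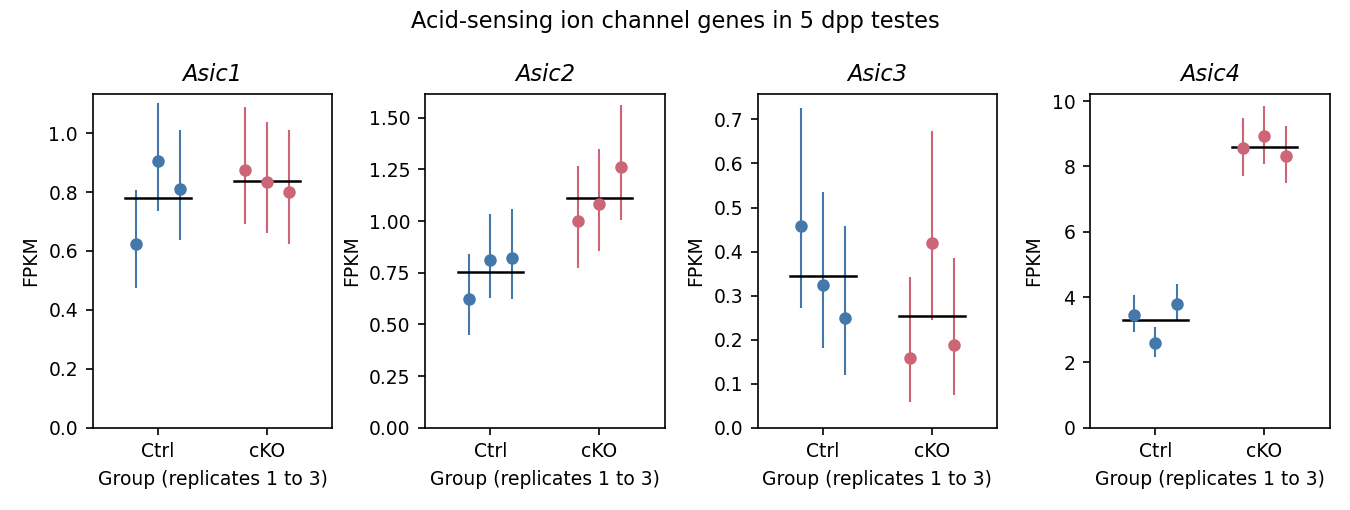
FPKM of the 4 ASIC genes in the 3 Ctrl (blue) and 3 cKO (red) testes, on an axis of its own for each gene. Points are samples in replicate order, vertical lines are exact 95% Poisson intervals for counting error, and black bars are group means. *Asic4*, which was selected for its difference, separates widely, *Asic2* separates narrowly with overlapping intervals, and *Asic1* and *Asic3* overlap.

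*Asic2* (ENSMUSG00000020704, chr11:80880169-81968457, − strand), whose subunit often joins ASIC1 in brain channels, was the only other member without overlap between the groups. Ctrl 1, 2 and 3 had 0.623, 0.813 and 0.820 FPKM, whereas cKO 1, 2 and 3 had 0.999, 1.08 and 1.26 FPKM. Every cKO testis was above every Ctrl testis, a separation in this direction that 10.3% of all tested genes showed. Ctrl testes averaged 0.752 ± 0.112 FPKM and cKO testes 1.11 ± 0.134 FPKM (SD, n = 3 each), a ratio of 1.48. The log2 fold change of 0.27 (SE 0.13, 95% interval −0.02 to 0.57) did not pass the threshold in limma (adjusted p-value 0.350), which no tested gene passed. By exact permutation the two-sided p was 0.1, the lowest value that 3 against 3 samples allow.

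Few reads lay behind *Asic2*, with 43, 66 and 58 in the Ctrl and 67, 77 and 83 in the cKO testes. The counting interval of Ctrl 3, 0.623 to 1.06 FPKM, overlapped that of cKO 1, 0.774 to 1.27 FPKM. The gene spans 6 other annotated genes, which were at or near 0. Leaving out each library in turn kept the groups apart, with ratios between 1.36 without Ctrl 1 and 1.56 without cKO 1.

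*Asic1* (ENSMUSG00000023017, chr15:99670368-99701130, + strand), the main proton-gated subunit of central neurons, overlapped between the groups. Ctrl 1, 2 and 3 had 0.624, 0.906 and 0.809 FPKM, whereas cKO 1, 2 and 3 had 0.875, 0.834 and 0.801 FPKM. Ctrl 1 was the lowest and Ctrl 2 the highest of the 6 testes, and the cKO testes lay between them. Ctrl testes averaged 0.780 ± 0.143 FPKM and cKO testes 0.837 ± 0.0371 FPKM (SD, n = 3 each). Its log2 fold change of 0.05 (SE 0.13) had a 95% interval from −0.25 to 0.35 and an adjusted p-value of 0.882 in limma. The direction turned without Ctrl 1, to −0.016.

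*Asic3* (ENSMUSG00000038276, chr5:24413392-24417835, + strand), a subunit best known from sensory neurons, was the least abundant member. Ctrl 1, 2 and 3 had 0.459, 0.325 and 0.249 FPKM, whereas cKO 1, 2 and 3 had 0.157, 0.420 and 0.187 FPKM. The groups overlapped, with cKO 2 second only to Ctrl 1. Ctrl testes averaged 0.344 ± 0.106 FPKM and cKO testes 0.255 ± 0.144 FPKM (SD, n = 3 each). Each value rested on 6 to 18 reads, and the gene fell under the minimum of 0.5 FPKM set for the limma test. The exact two-sided permutation p was 0.4, and a difference was not detectable at this depth.

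By FPKM, *Asic4* was above and *Asic3* below the other members in every testis. *Asic1* and *Asic2* overlapped in Ctrl testes, and in cKO testes *Asic2*, from 0.999 FPKM, lay above *Asic1*, up to 0.875 FPKM. Their counting intervals in cKO 1 overlapped, at 0.774 to 1.27 FPKM for *Asic2* and 0.693 to 1.09 FPKM for *Asic1*. *Asic4* made up 67.0%, 56.0% and 66.9% of the summed FPKM of the 4 members in the Ctrl testes, and 80.8%, 79.3% and 78.8% of it in the cKO testes. The other 3 members together summed to 1.71 to 2.04 FPKM in Ctrl against 2.03 to 2.34 FPKM in cKO testes. These sums overlapped narrowly, so the larger total in cKO testes came mostly from *Asic4*. The FPKM ratio of *Asic4* to *Asic2* was 5.56, 3.20 and 4.64 in Ctrl and 8.56, 8.26 and 6.61 in cKO testes, as a description, since *Asic4* was selected on its difference.

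Acid-related genes outside the 4 members were compared next, as 37 genes in 4 lists of which 23 passed the filter on low values. In limma 0 of the 23 passed an adjusted p-value of 0.05, as did 0% of all 16206 tested genes. The lowest adjusted p-value over all tested genes was 0.058 in limma, so missing the threshold does not show that a gene was unchanged. The study's own DESeq2 test of counts from these samples called genes in both directions. At an unadjusted p-value under 0.05, 2 of the 23 were higher and 4 were lower, against 1069 (6.6%) and 1508 (9.31%) of all tested genes in limma. Limma voom on the recovered reads called 83 of all tested genes (0.512%) and 0 of the 23. Without overlap between groups, 4 were higher and 4 were lower, where 10.3% of all tested genes were higher and 12.8% lower. Their median log2 fold change was 0.06, within a range from −0.59 to 0.33, while the median over all tested genes was 0.0027. These values are on log2(FPKM + 1), which understates the change of low genes.

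Among the closest relatives, the family members *Asic5*, a bile acid-sensitive channel gene, and *Scnn1g*, for the gamma subunit of the epithelial sodium channel, had 0 reads in all 6 testes. For *Asic5* a count of 0 allows up to 0.0683 to 0.0842 FPKM, depending on the library. *Scnn1a*, for the alpha subunit, was at 0.454 ± 0.159 FPKM in Ctrl against 0.453 ± 0.0686 FPKM in cKO testes (SD, n = 3 each). *Scnn1b*, for the beta subunit, was at 1.34 ± 0.220 FPKM in Ctrl against 1.68 ± 0.148 FPKM in cKO testes (SD, n = 3 each). The *Scnn1b* groups overlapped, and its log2 fold change of 0.20 (SE 0.12) had an adjusted p-value of 0.471 in limma.

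Of 13 other proton sensors, 5 passed the filter. *Kcnk3*, a background potassium channel that acid closes, had 14.5, 14.3 and 14.3 FPKM in the Ctrl libraries and 19.6, 16.4 and 16.8 FPKM in the cKO libraries, without overlap. On the log2 scale it differed by 0.27 (SE 0.090, adjusted p-value 0.232 in limma). *Kcnk5*, a related channel that alkaline conditions open, was in the opposite order, at 3.43 ± 0.448 FPKM in Ctrl against 2.46 ± 0.362 FPKM in cKO testes (SD, n = 3 each, adjusted p-value 0.255 in limma). *Tmem206* (also called *Pacc1*), a proton-activated chloride channel, was the most abundant sensor, and its groups overlapped at 78.0 ± 10.4 and 66.8 ± 3.90 FPKM (SD, n = 3 each). The acid receptor *Gpr4* and the proton channel *Hvcn1* overlapped as well.

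Of 8 genes for proteins that bind ASICs or set their current, 7 passed the filter. *Lin7b*, a scaffold protein, was at 0.880 ± 0.169 FPKM in Ctrl against 1.36 ± 0.209 FPKM in cKO testes, and *Stoml1*, a stomatin-like membrane protein, was at 9.82 ± 0.484 and 11.1 ± 0.203 FPKM (SD, n = 3 each). Both were higher without overlap, with adjusted p-values of 0.301 and 0.360 in limma. The log2 fold change of *Lin7b* was 0.33 on log2(FPKM + 1), which understates low genes, and 0.63 in limma voom on recovered reads. *Slc9a3r1*, a PDZ scaffold of membrane transporters, was lower without overlap, at 15.2 ± 2.24 FPKM in Ctrl against 10.2 ± 2.38 FPKM in cKO testes (SD, n = 3 each, adjusted p-value 0.211 in limma). *Pick1*, *Stom*, *Dlg4* and *Akap5* overlapped between groups.

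Of 12 regulators of pH, 10 passed the filter. The lactate and proton transporters *Slc16a1* and *Slc16a3* were both lower without overlap. *Slc16a1* had 19.3, 23.2 and 18.9 FPKM in the Ctrl libraries and 10.5, 14.6 and 14.9 FPKM in the cKO libraries, and its adjusted p-value of 0.156 in limma was the lowest of the 23 acid-related genes. *Slc16a3* was at 15.0 ± 1.68 FPKM in Ctrl against 10.8 ± 2.19 FPKM in cKO testes (SD, n = 3 each, adjusted p-value 0.241 in limma). *Slc4a4*, a sodium bicarbonate cotransporter, was higher without overlap at 0.775 ± 0.0745 and 0.916 ± 0.0721 FPKM (SD, n = 3 each, adjusted p-value 0.683 in limma). The carbonic anhydrases and bicarbonate exchangers that passed the filter overlapped.

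**Figure D2:**
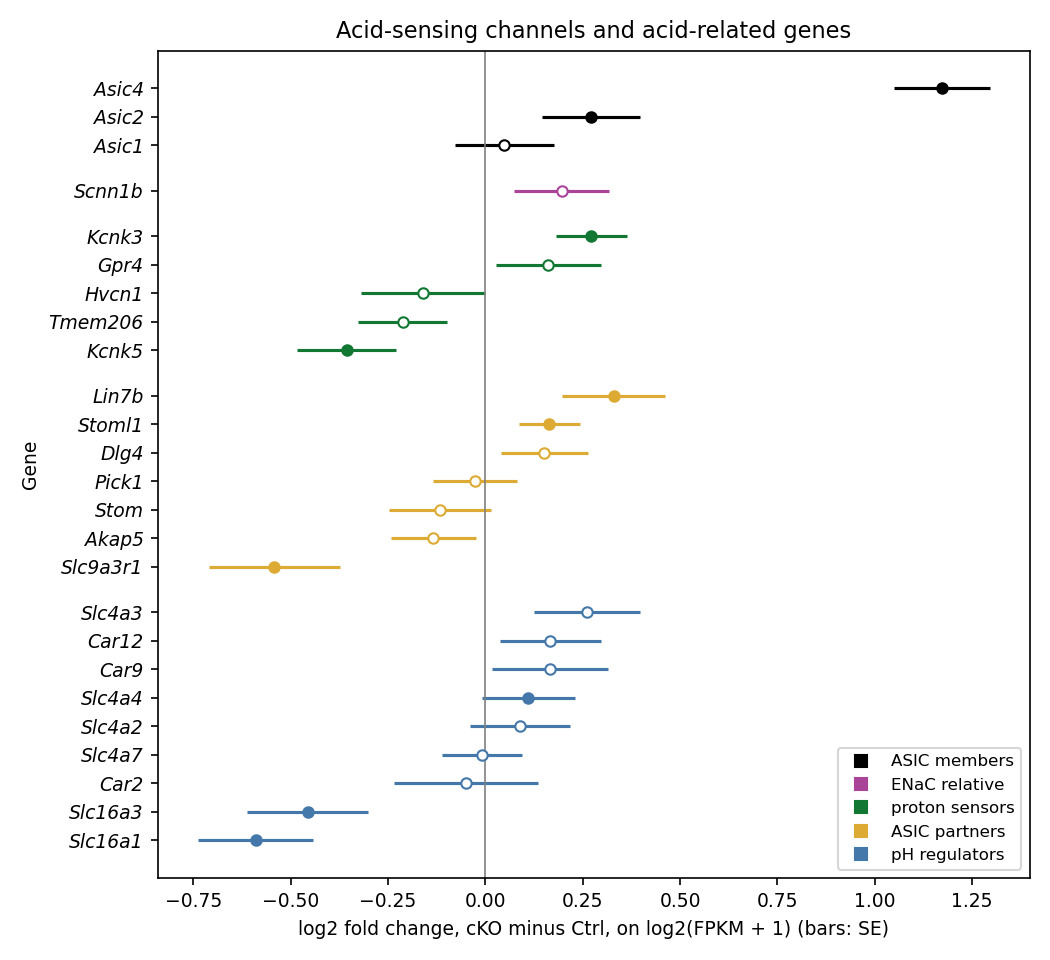
Log2 fold change (cKO minus Ctrl, on log2(FPKM + 1)) of 3 ASIC members and of the acid-related genes that passed the filter, by list, with 1 gene not shown, with bars for the SE. Filled points are genes whose groups did not overlap. *Asic4*, at 1.17, was selected for its difference, and the acid-related genes lie between −0.59 and 0.33. The scale understates the change of low genes.

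The genes around *Asic4* were examined for differences at the locus. *Chpf*, a chondroitin polymerizing enzyme gene on the − strand, ends 225 bases beyond the end of *Asic4*, and *Gmppa*, for a GDP-mannose pyrophosphorylase subunit, ends 7256 bases before its start. *Chpf* was at 25.6 ± 2.14 FPKM in Ctrl against 31.7 ± 5.30 FPKM in cKO testes, and *Gmppa* was at 17.8 ± 1.35 and 18.7 ± 2.79 FPKM (SD, n = 3 each). Both overlapped between groups, with adjusted p-values of 0.329 and 0.827 in limma. The gene *Gm37264* lies within *Asic4* on the opposite strand and held 0 to 8 reads per testis, against at least 135 for *Asic4*.

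Within 100 kb of *Asic4* were 15 other genes, of which 10 passed the filter. The 10 include the pseudogene *Gm15181*, which held only 0 to 7 reads per testis. In limma 0 of the 10 passed the adjusted threshold, nor did any other tested gene. Without overlap, 3 of the 10 were higher and 1 was lower, against 10.3% and 12.8% of all tested genes. *Speg*, a striated muscle kinase gene upstream of *Asic4*, had 1.99, 1.58 and 2.01 FPKM in the Ctrl libraries and 2.81, 2.68 and 2.72 FPKM in the cKO libraries. Its groups were well apart, and its log2 fold change of 0.39 (SE 0.11) had an adjusted p-value of 0.176 in limma. *Des*, for the muscle filament protein desmin, was at 12.9 ± 1.86 and 17.1 ± 3.16 FPKM, and the cytoskeletal adaptor gene *Obsl1* was at 44.5 ± 9.62 and 54.5 ± 1.37 FPKM in Ctrl and cKO testes (SD, n = 3 each). *Stk11ip*, for a protein that binds the kinase LKB1, was the lower one, at 9.65 ± 1.23 and 7.15 ± 0.280 FPKM (SD, n = 3 each, adjusted p-value 0.174 in limma).

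*Inha*, the inhibin alpha gene of Sertoli cells, was by far the most abundant neighbour, at 646 ± 187 FPKM in Ctrl against 858 ± 122 FPKM in cKO testes (SD, n = 3 each), and it overlapped. *Tmem198* and *Slc4a3*, the latter also a bicarbonate exchanger of the pH list, had log2 fold changes of 0.37 and 0.26 and overlapped. Without Ctrl 2, the log2 fold change was 0.19 for *Inha*, 0.12 for *Obsl1* and 0.25 for *Tmem198*, and without cKO 1 it was 0.22 for *Tmem198*. The median log2 fold change of the 10 neighbours was 0.30, and 0.19 without Ctrl 2, against 0.0027 over all tested genes. The medians around *Asic1* (9 genes passed) and *Asic3* (9 genes passed) were 0.06 and 0.08, and near *Asic2* the single gene that passed was at 0.20. Of all 60 neighbours of the 4 members, 29 passed the filter. Without overlap, 5 of the 29 were higher and 2 lower, against 10.3% and 12.8% of all tested genes. The 5 include a pseudogene near *Asic1* with only 2 to 10 reads per testis.

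**Figure D3:**
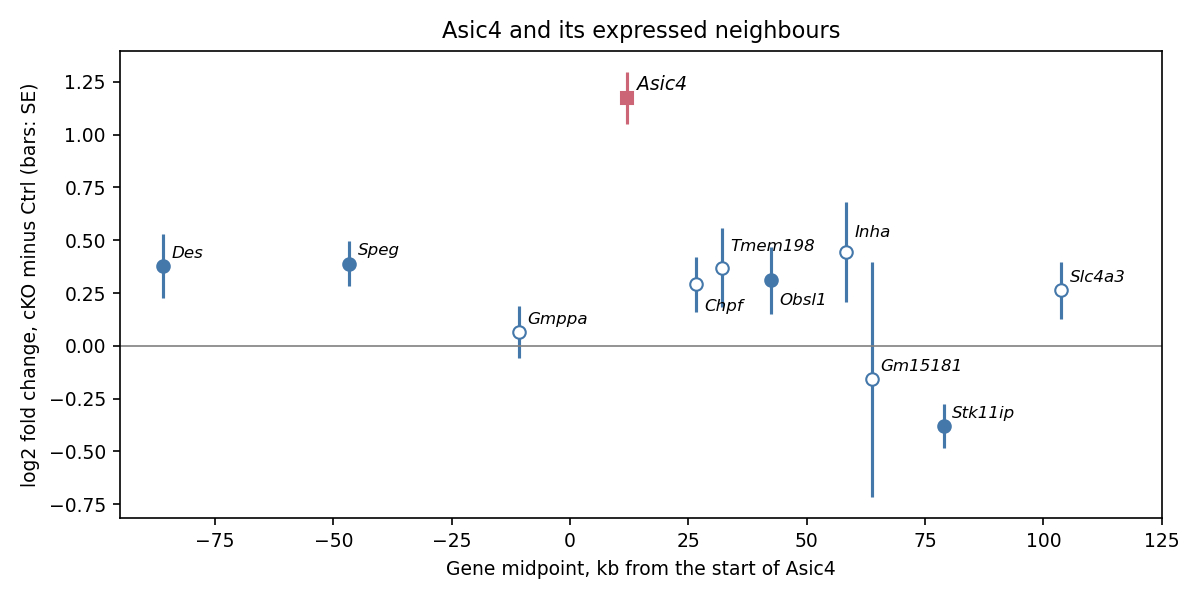
Log2 fold change (cKO minus Ctrl, on log2(FPKM + 1)) of *Asic4* (square) and its 10 neighbours within 100 kb that passed the filter, against the distance of each gene's midpoint from the start of *Asic4* in kb. Bars are SE, and filled circles are neighbours whose groups did not overlap. *Asic4* is at 1.17 and its neighbours lie between −0.38 and 0.44.

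Marker levels of the testis cell types were compared in the same libraries. Their counts of genes without overlap stand against 10.3% of all tested genes that were higher and 12.8% that were lower. The 13 germ-cell markers summed to 214.8 to 491.5 FPKM in Ctrl testes, highest in Ctrl 2, and to 67.8 to 102 FPKM in cKO testes, with 12 of 13 lower without overlap. Ctrl 2 was thus the highest Ctrl testis in germ-cell markers and the lowest in *Asic4*. The 6 Leydig-cell markers summed to 362.6 to 543.9 FPKM in Ctrl against 585.6 to 681.6 FPKM in cKO testes, with 3 of 6 higher without overlap. The 5 endothelial markers summed to 38.7 to 50.2 and 51.8 to 57.8 FPKM, and of the 4 that passed the filter 1 was higher without overlap. The 5 peritubular myoid and smooth muscle markers were lower in sum, at 508.8 to 514.0 and 321.6 to 497.9 FPKM, with 2 of 5 lower and *Des* higher.

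The summed markers of the other somatic types overlapped between groups. The 9 Sertoli-cell markers summed to 1844 to 2470 FPKM in Ctrl against 1978 to 2390 FPKM in cKO testes, although *Amh* was higher and 3 others were lower without overlap. The 5 macrophage markers summed to 66.0 to 95.9 and 83.7 to 150.8 FPKM, the 9 neural and glial markers to 63.7 to 92.9 and 76.1 to 77.8 FPKM, and the 4 erythroid markers to 217.2 to 354.3 and 286.1 to 678.3 FPKM. The part of these cell types in the *Asic4* difference was not tested. The extraction text of the labels speaks of retinas, whereas the 8 retina markers summed to at most 0.890 FPKM in any library, with *Crx* and *Nrl* at 0 in all 6.

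*Asic4* was also set against each of 6 somatic marker sums within the same library. Per 1000 FPKM of Leydig-cell markers, Ctrl 1, 2 and 3 had 9.56, 5.43 and 6.99 FPKM of *Asic4*, whereas cKO 1, 2 and 3 had 12.5, 15.0 and 14.2 FPKM. The ratio of the group means was 1.90. It was 2.01 against macrophage, 2.09 against endothelial, 2.70 against Sertoli-cell, 2.75 against neural and 3.50 against myoid markers. Single abundant genes made up much of some sums. In Ctrl testes *Lyz2* averaged 47.7 of 83.9 FPKM of macrophage, *Cdh5* 29.3 of 43.3 FPKM of endothelial and *Acta2* 456 of 511 FPKM of myoid markers. *Lyz2* also had the highest cKO to Ctrl ratio of the macrophage markers, 1.62. A sum may thus follow its most abundant gene more than its cell type. The ratios of *Asic4* to the sums use the values on which *Asic4* was selected, and they are given as a description.

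**Figure D4:**
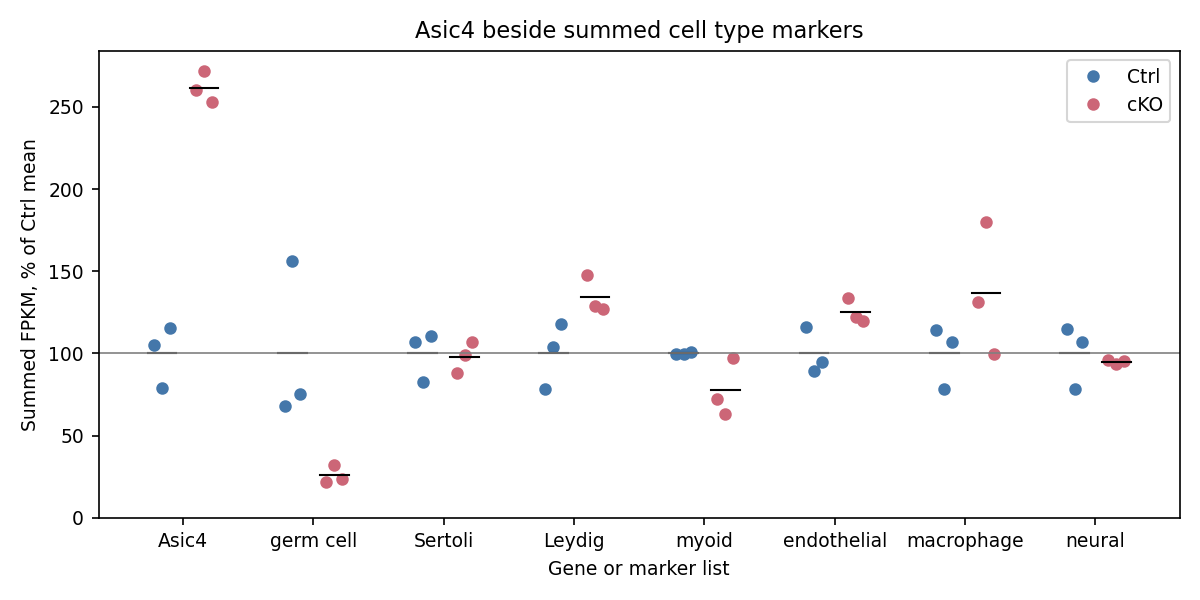
FPKM of *Asic4* and summed FPKM of 7 marker lists in each testis, as a percentage of the Ctrl mean (grey line at 100), with Ctrl in blue, cKO in red and short bars for group means. *Asic4* in cKO testes lies at 253% to 272% of the Ctrl mean, germ-cell markers lie at 21.5% to 32.4%, and the Leydig-cell sum lies at 127% to 148%.

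The genes whose log2(FPKM + 1) followed *Asic4* most closely over the 6 testes were sought among 12097 protein-coding genes that averaged 1 FPKM or more. They were *Dsp*, *Nrd1*, *Lemd1*, *Gabbr1* and *Plxnd1*, with Pearson coefficients of 0.994, 0.992, 0.991, 0.991 and 0.991. *Dsp*, for the desmosome protein desmoplakin, had 3.01, 2.54 and 3.42 FPKM in the Ctrl libraries and 6.11, 6.65 and 5.60 FPKM in the cKO libraries, a ratio of 2.04. *Gabbr1*, for a subunit of the metabotropic GABA receptor, had 4.78, 4.23 and 5.13 FPKM in the Ctrl libraries and 6.82, 7.59 and 7.25 FPKM in the cKO libraries, a ratio of 1.53. All 5 genes were higher without overlap and lowest in Ctrl 2, like *Asic4*, which their choice by likeness to *Asic4* largely fixed. The coefficients describe 6 points that fall into the same 2 groups and share libraries. By the same measure *Asic2* was at 0.828, *Asic1* at 0.215 and *Asic3* at −0.385 with *Asic4*.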

How the data were processed

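The authors deposited FPKM for 54532 genes in 6 testis samples, and the submitters' processing notes name HISAT2 2.0.5 and the mm10 build. The study's methods give paired-end sequencing of polyadenylated RNA, counting per gene and 3 biological replicates per condition. The annotation release is not given in the sources used here. Every product of FPKM and gene length was a whole multiple of 1 step per sample within 0.01 (100%), so reads per gene were recovered. Groups were taken from the sample titles. Log2(FPKM + 1) of the 16206 genes averaging 0.5 FPKM or more was fitted with limma 3.58.1 in R 4.3.3 (trended empirical Bayes, no covariate, two-sided, Benjamini-Hochberg, threshold 0.05). The fit was tried on simulated reads with planted changes larger than those of the members and acid-related genes, so smaller changes were not covered.

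The members, lists and markers were chosen with earlier results of these data known. Named genes were the members, list genes and *Asic4* neighbours above the filter, the 5 genes most like *Asic4*, and genes of the relatives and marker lists needed beside a result, the latter chosen after their values were seen. A gene counted in its list is not reported here by name. Gene coordinates are the deposited ones, and identical stretches of 50 bases were sought between GENCODE M21 transcripts. Deviations of same-numbered samples from their group means correlated at 0.066, 0.016 and 0.088, so no pairing was used. Alternatives were another pseudocount, filters, TPM, quantile normalization, protein-coding genes, the replicate block, limma voom on recovered reads and leaving out each replicate. Antisense reads cannot be told apart where strand was not recorded. Intervals and floors (3 reads) cover counting error only.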

Additional observations from a re-analysis of the deposited data

How the results depend on the processing

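*Asic4* had log2 fold changes from 1.05 to 1.42 under the 14 alternatives, a description of the values on which it was selected. The filters, protein-coding genes alone and the replicate block cannot change the log2 fold change of a gene that they keep. They left *Asic4* at 1.17. *Asic4* moved by more than the spread between replicates with a pseudocount of 0.1 (1.38) and under limma voom on recovered reads (1.42). Both of these settings shrink the change of low genes less. Leaving out each replicate gave 1.05 to 1.26 for *Asic4*. *Asic2* stayed positive under 13 alternatives, from 0.22 to 0.56, and never passed the threshold in limma (adjusted p-values 0.252 to 0.531). *Asic1* ran from −0.016 to 0.11, with the negative value without Ctrl 1 and up to 0.10 on leaving out other replicates, and adjusted p-values from 0.784 to 0.972. With a mean of at least 1 FPKM, *Asic1* and *Asic2* were not tested, and *Asic3* could be fitted only with no filter (−0.10). *Gmppa* turned to −0.010 without cKO 1, and leaving out each replicate moved it up to 0.19. Against 0 genes in the planned limma test (1069 higher and 1508 lower at an unadjusted p-value under 0.05), TPM called 5, protein-coding genes alone 213 and limma voom 83. Leaving out each replicate called 0 to 18 genes, with 18 without Ctrl 2 and 8 without Ctrl 3. With the replicate block 98 genes were called, and the pairing was not borne out by the samples. No acid-related gene or neighbour was called under any of the 14 alternatives. Apart from the effect of the pseudocount, the cause was not tested. The depth of 6 to 18 reads limits *Asic3*, and 43 to 99 reads limit *Asic1* and *Asic2*.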
